A study of Homo sapiens with 6 samples.

Results

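Tumour cells can shape immune attack through surface molecules that engage receptors on lymphocytes and macrophages or make adenosine outside the cell, and the genes described here encode 9 checkpoint ligands and related surface molecules, listed by name: PVR, CD274 (PD-L1), PDCD1LG2 (PD-L2), CD276 (B7-H3), ICOSLG, CD47, LGALS9, TNFRSF14 and ENTPD1. They were the rows of the deposited table whose gene name equalled one of these names, and all 9 were found among the 20851 genes in it. The libraries came from A375, a human melanoma cell line, grown in RPMI-1640 medium with serum and antibiotics and with no immune cells added. A375RIPK4.KO cells are clone #1 of a subline made by CRISPR/Cas9 with a lentiviral guide RNA against RIPK4, a receptor-interacting kinase, and A375neg cells carried a nontargeting guide RNA and are labelled as a GFP control. Each group had 3 libraries, which the series describes as biological replicates. Both groups therefore carried a guide RNA. All A375RIPK4.KO libraries came from 1 clone, and only the A375neg libraries carry GFP in their labels. The loss of RIPK4, differences between clones and any difference tied to that label therefore cannot be told apart in any value below. The targeted gene itself (RIPK4, chromosome 21, 41739373 to 41767052 on GRCh38) fell to 42, 51 and 61 raw counts in A375RIPK4.KO from 319, 368 and 404 in A375neg (log2 fold change −2.69, SE 0.17, adjusted p = 1.01e-05, quasi-likelihood test of edgeR, Benjamini-Hochberg adjusted).

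PD-L1 and PD-L2 bind PD-1 on activated T cells and dampen signalling through the T-cell receptor. PVR (CD155) is shared by the activating receptor DNAM-1 (CD226) and the inhibitory receptors TIGIT and CD96. CD47 gives phagocytes a signal not to engulf the cell by engaging SIRPα, and ENTPD1 (CD39) starts the conversion of extracellular ATP to adenosine, which suppresses T cells.

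The libraries held 21882863 to 26694140 counts assigned to genes. A count of 0 allows a level of up to 3 counts, or 0.113 to 0.134 CPM (counts relative to TMM-scaled library size), and covers counting error only. Normalized counts below are raw counts scaled by edgeR's TMM factors, and a gene is said to rise or fall where its adjusted p was under 0.05. Melanoma and melanocyte markers were uneven in level. Over the 8 of 12 listed genes counted, they summed to 1081 to 1190 CPM in A375neg and 871 to 902 in A375RIPK4.KO. The largest normalized means in A375neg were those of CSPG4 (12969), SOX10 (9128) and MCAM (4879). PMEL had 3 to 22 raw counts per library and TYRP1 had 1 to 8. MLANA, TYR, DCT and PRAME were not among the genes of the deposited table. Of 7 markers tested, 5 fell (71.4%, where 8.24% of all genes tested fell), namely S100B, S100A1, MITF, MCAM and CSPG4. Of these, MCAM and CSPG4 kept their call under all 13 alternative settings, while S100A1 lost it in 9 (adjusted p up to 0.139), MITF in 6 (up to 0.154) and S100B in 4 (up to 0.126). Leukocyte markers summed to 2.18 to 3.32 CPM and 0.950 to 1.65 CPM over 8 of 12 listed genes, with PTPRC (CD45), which defines leukocytes, at 0, 0 and 3 raw counts in A375neg and 0, 0 and 1 in A375RIPK4.KO. The leukocyte marker that could be tested, the lysozyme gene LYZ, fell from 38, 36 and 37 raw counts to 13, 0 and 3 (log2 fold change −2.62, adjusted p = 0.0382, quasi-likelihood test of edgeR, Benjamini-Hochberg adjusted), a call lost without any 1 of the A375neg libraries or without A375RIPK4.KO replicate 3 (adjusted p up to 0.134). LYZ passed the filter on low counts through its A375neg libraries, where it was higher, so its sign is not independent of that filter. The part of LYZ in the results below was not tested. In bulk RNA, fewer cells of a type and less RNA per cell cannot be told apart.

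Of the 9 genes, 6 had enough counts to be tested. PVR and PDCD1LG2 rose in A375RIPK4.KO, none fell, and CD274, ENTPD1, CD276 and CD47 did not pass the test. The share called was 2 of 6 (33.3%), where 16.6% of all 14443 genes tested passed in either direction, 8.4% as higher and 8.24% as lower. With a change of at least 1.5-fold also required, 1 of 6 passed, beside 9.04% of all genes. Normalized counts were fully separate between the groups for 4 of the 6 (PVR, CD274, PDCD1LG2 and ENTPD1), beside 36.5% of all genes tested. The median log2 fold change (A375RIPK4.KO over A375neg) of the 6 was 0.49, and that of all genes was −0.0047. All 6 estimates were above 0, as were 7119 of 14443 overall. ENTPD1 passed the filter on low counts through its A375RIPK4.KO libraries, where it was higher, so its sign is not independent of the filter. The 3 genes left untested had log2 ratios of mean normalized counts of −1.46 (LGALS9), −0.48 (ICOSLG) and 1.10 (TNFRSF14).

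**Figure D1:**
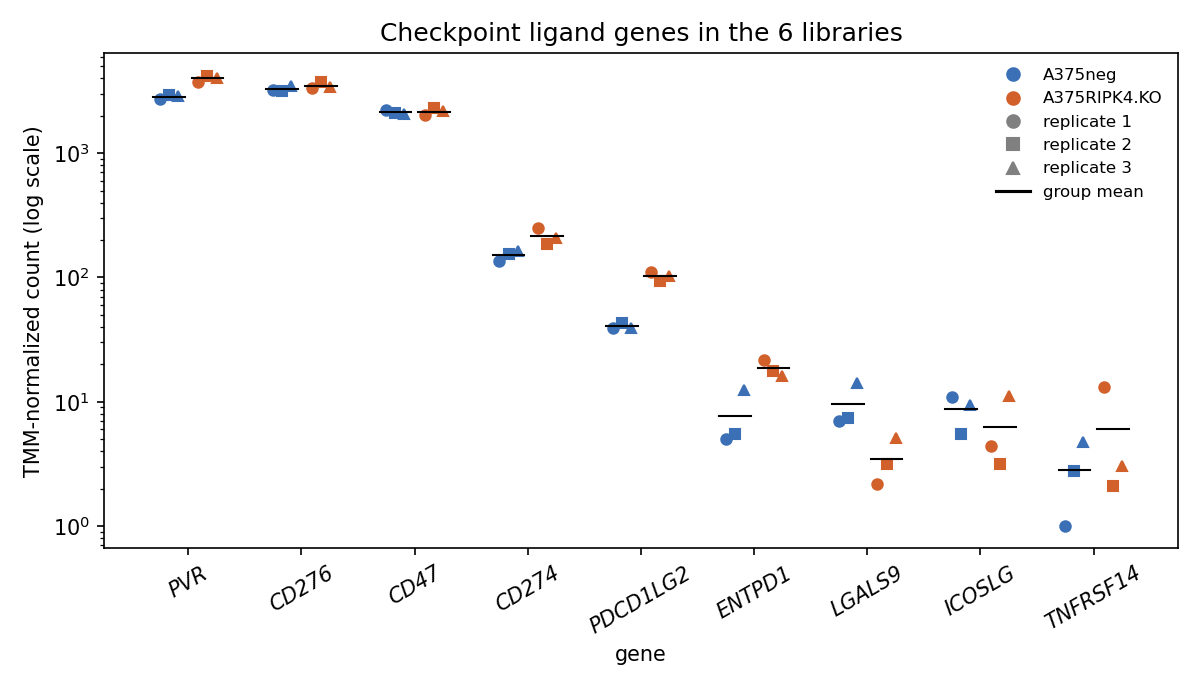
TMM-normalized counts of the 9 genes (log axis) in the 3 A375neg libraries (blue) and the 3 A375RIPK4.KO libraries (orange), with marker shapes for replicates and black bars for group means. PVR, CD276 and CD47 lie above 2000 in every library, and the groups are separate for PVR, CD274, PDCD1LG2, ENTPD1 and LGALS9.

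Per length of exon, PVR was the most abundant of the 9 genes. On the scale of normalized CPM per kilobase of merged exons, its level was 33.0 ± 1.22 (SD, n = 3) in A375neg and 46.4 ± 2.77 (SD, n = 3) in A375RIPK4.KO. CD276 followed at 24.1 ± 1.26 and 25.7 ± 1.46 on that scale, and CD47 at 10.6 ± 0.35 and 10.7 ± 0.70. The ranges of these 3 genes did not overlap within either group, but with the length of the longest transcript in place of merged exons CD276 stood above PVR in A375neg (38.6 against 34.9) and below it in A375RIPK4.KO (41.1 against 49.1).

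The PD-1 ligands were far less abundant. CD274 had a level of 1.5 ± 0.13 per kilobase of exon in A375neg and 2.12 ± 0.33 in A375RIPK4.KO, and PDCD1LG2 had 0.696 ± 0.043 and 1.77 ± 0.14. The 2 genes were separate in A375neg (1.36 to 1.61 against 0.670 to 0.746), and their ranges met in A375RIPK4.KO (1.83 to 2.48 against 1.62 to 1.90). The remaining 4 genes stayed below 0.13 per kilobase in every library: LGALS9, ENTPD1, ICOSLG and TNFRSF14 stood at 0.0680, 0.0445, 0.0378 and 0.0186 in A375neg, in an order whose neighbours overlapped. In A375RIPK4.KO, ENTPD1 led them at 0.109, above every library of the other 3 genes.

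PVR, the nectin-like adhesion molecule CD155, lies on the plus strand of chromosome 19 of GRCh38 from 44643910 to 44666162. Its raw counts were 2731, 3182 and 3045 in A375neg replicates 1 to 3 and 3430, 4046 and 3990 in A375RIPK4.KO. Normalized, these were 2731, 2931 and 2886 against 3749, 4223 and 4045. Every A375RIPK4.KO library was above every A375neg library, with a gap wider than the spread within either group. The mean rose from 2849 ± 105 to 4006 ± 239 (SD, n = 3 each), a log2 fold change of 0.49 (SE 0.07, 95% interval 0.34 to 0.64, adjusted p = 0.00094, quasi-likelihood test of edgeR, Benjamini-Hochberg adjusted), or 1.41-fold. Over 13 alternative settings the log2 fold change was 0.46 to 0.54 and the adjusted p 1.81e-09 to 0.00923, so the increase passed the test in each, while the estimate stayed under 1.5-fold. CEACAM19, a neighbour that overlaps PVR on the same strand in GENCODE, had only 21 to 60 raw counts per library.

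The receptors that PVR engages are lymphocyte genes, and TIGIT and CD226 were near the floor (TIGIT at 0 in each A375neg library and at 2 in each A375RIPK4.KO library, CD226 at 2 to 9 raw counts). CD96 was not. Its raw counts were 8532, 9258 and 8700 in A375neg and 4442, 4839 and 4969 in A375RIPK4.KO, a fall with a log2 fold change of −0.76 (SE 0.06, adjusted p = 2.83e-05, quasi-likelihood test of edgeR, Benjamini-Hochberg adjusted). CD96 was singled out after its values were seen. In these libraries the ligand gene PVR was therefore higher by 1.41-fold and the receptor gene CD96 lower by 1.69-fold, in libraries where PTPRC had at most 3 raw counts.

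The nectins and nectin-like molecules, relatives of PVR, are adhesion proteins of cell junctions. Of 5 listed, 4 fell in A375RIPK4.KO and none rose, where 8.24% of all genes tested fell, and their median log2 fold change was −0.35 beside −0.0047 over all genes. NECTIN1 had a log2 fold change of −0.35 (adjusted p = 0.0116), NECTIN3, a binding partner of PVR in cell contacts, −0.34 (adjusted p = 0.00678) and CADM1, a nectin-like protein recognised by the T- and NK-cell receptor CRTAM, −0.35 (adjusted p = 0.0117), all by the quasi-likelihood test of edgeR, Benjamini-Hochberg adjusted. NECTIN4, at 26, 34 and 28 raw counts in A375neg and 8, 9 and 11 in A375RIPK4.KO, had −1.5 (adjusted p = 0.0132, the same test). NECTIN4 passed the filter on low counts through its A375neg libraries, where it was higher. Its sign, and its part in the 4 counted as lower, is therefore not independent of that filter. NECTIN2 (CD112), the other ligand of TIGIT and DNAM-1, was also named after its values were seen: it had 908 ± 29.8 normalized counts in A375neg and 1033 ± 61.9 in A375RIPK4.KO, a log2 fold change of 0.19 that did not pass (adjusted p = 0.119, the same test). The calls of NECTIN1, NECTIN4 and CADM1 were lost without some A375neg libraries: replicate 1 or 3 for NECTIN1 (adjusted p = 0.0543 and 0.0513), replicate 2 for NECTIN4 (0.072) and replicate 3 for CADM1 (0.0525), and 2 to 4 of the 5 fell when any 1 library was left out.

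**Figure D2:**
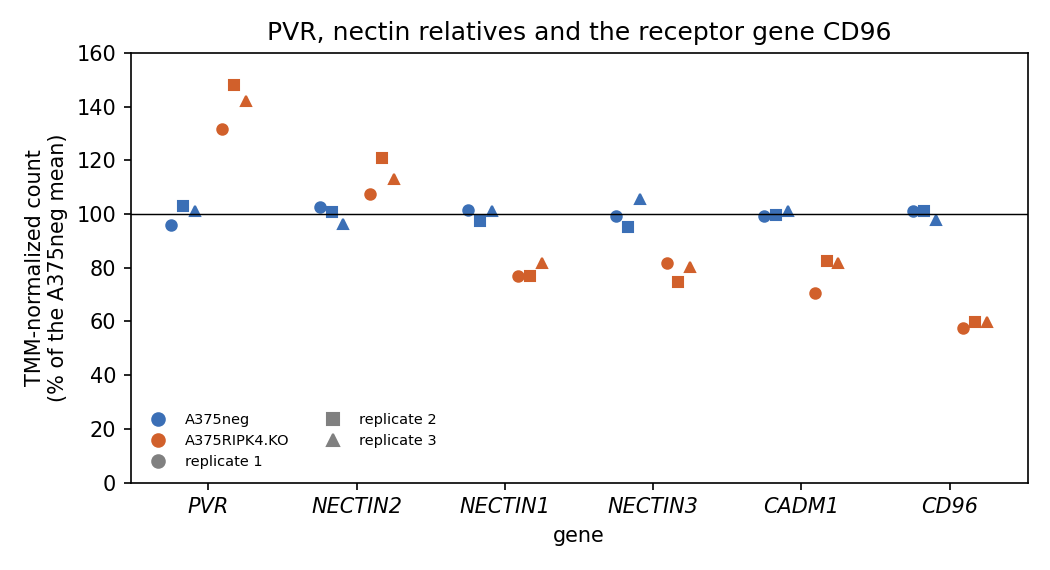
TMM-normalized counts of PVR, 4 of its nectin relatives and CD96 in each library, as a percentage of the A375neg mean of the same gene. The A375RIPK4.KO libraries (orange) sit at 132% to 148% for PVR, at 107% to 121% for NECTIN2, and at 57.6% to 59.9% for CD96, while NECTIN1, NECTIN3 and CADM1 lie between 70.5% and 82.6%.

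The 5 genes whose pattern over the 6 libraries was most like that of PVR were PTPRH, DKK1, COL5A3, STEAP3 and FOXD1, with root mean square differences in centred log2 CPM of 0.0215, 0.0236, 0.0372, 0.0418 and 0.0453. They were drawn from 10719 protein-coding genes that averaged 50 raw counts or more. PTPRH is a receptor-type tyrosine phosphatase, DKK1 a secreted Wnt antagonist, COL5A3 a collagen V chain, STEAP3 an iron reductase and FOXD1 a forkhead transcription factor. Their normalized means ran from 129 (PTPRH) to 3934 (DKK1) in A375neg and from 180.0 to 5425 in A375RIPK4.KO. The genes were chosen for their likeness to PVR, so these higher means follow from the choice. PTPRH passed the quasi-likelihood test of edgeR only with upper-quartile scaling or the gene length correction (adjusted p from 0.0319 to 0.0469). COL5A3 lost its call in that test in 4 fits that each lacked 1 library (adjusted p from 0.0518 to 0.0815).

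PDCD1LG2 (PD-L2), the second ligand of PD-1, rose by more than 1.5-fold. The gene lies on the plus strand of chromosome 9 from 5510531 to 5571282, downstream of CD274 (5450542 to 5470554, same strand), with 39976 bases between them. Its raw counts were 39, 47 and 41 in A375neg and 101, 90 and 102 in A375RIPK4.KO. The A375RIPK4.KO libraries all lay above the A375neg libraries, by a gap far wider than the spread within either group. The normalized mean rose from 40.4 ± 2.52 to 102.6 ± 8.26 (SD, n = 3 each), a log2 fold change of 1.34 (SE 0.19, adjusted p = 0.0015, quasi-likelihood test of edgeR, Benjamini-Hochberg adjusted) or 2.53-fold, with a 95% interval of 1.87- to 3.43-fold. The 13 alternatives gave 1.29 to 1.40, with adjusted p from 3.32e-05 to 0.00946.

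CD274 (PD-L1) pointed the same way with less certainty. Its raw counts were 137, 169 and 171 in A375neg and 229, 177 and 204 in A375RIPK4.KO. Normalized, they were 137.0, 155.7 and 162.1 against 250.3, 184.8 and 206.8, so the groups did not overlap but A375RIPK4.KO replicate 1 stood well above the other two. The means were 151.6 ± 13.04 and 214.0 ± 33.4 (SD, n = 3 each), a log2 fold change of 0.50 (SE 0.16, 95% interval 0.13 to 0.86) or 1.41-fold. The unadjusted p was 0.0133 and the adjusted p 0.0686 in the quasi-likelihood test of edgeR, Benjamini-Hochberg adjusted, so the difference was not called. It passed without A375RIPK4.KO replicate 2 (log2 fold change 0.60, adjusted p = 0.0306) and after a correction for gene length (0.50, adjusted p = 0.0465), and the fits that each lacked 1 library ran from 0.37 to 0.60, with adjusted p from 0.0306 to 0.199.

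The counts of the PD-1 ligands relative to each other also differed between the libraries of the groups. For every 100 raw counts of CD274 there were 28.5, 27.8 and 23.98 counts of PDCD1LG2 in A375neg and 44.1, 50.8 and 50 in A375RIPK4.KO, so the groups did not overlap. The means were 26.8 ± 2.43 and 48.3 ± 3.67 (SD, n = 3 each; exact permutation test, two-sided, p = 0.1, which is the lowest value 3 libraries against 3 can give). This ratio uses no scaling between libraries.

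**Figure D3:**
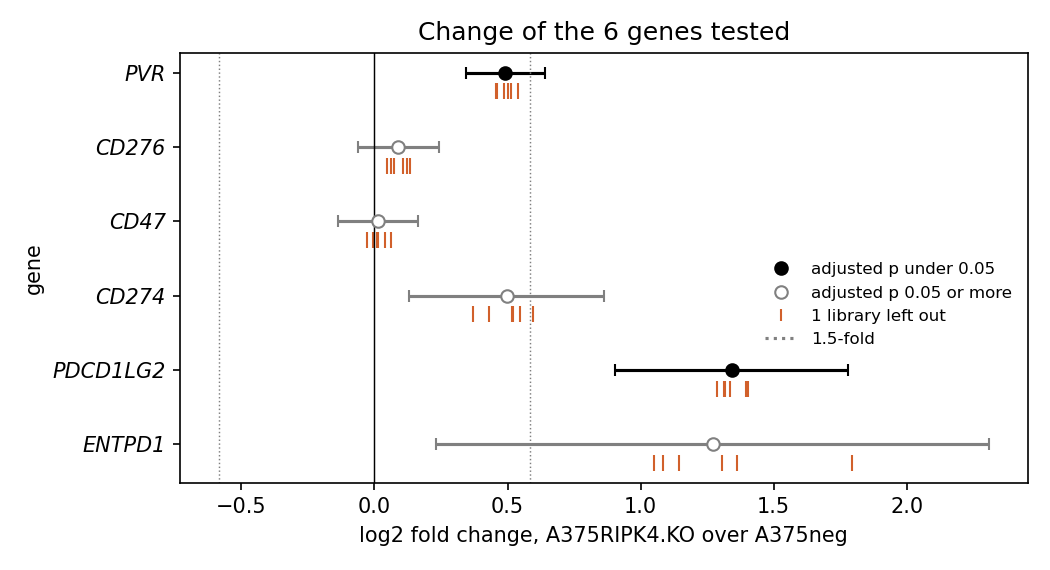
Log2 fold change of the 6 genes tested (A375RIPK4.KO over A375neg), with 95% intervals from the edgeR fit, filled points where the adjusted p was under 0.05, dotted lines at 1.5-fold, and orange ticks for the estimate with each library left out in turn. PVR and PDCD1LG2 stay above 0 with filled points, the interval of ENTPD1 (0.23 to 2.31) is the widest, and the ticks of CD47 fall on both sides of 0.

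Sequences upstream of CD274 and PVR are shown because interferon response elements are a known route of CD274 induction and PVR had the lowest p of the 6 genes tested. Each window, from RefSeq on GRCh38.p14, runs 5′ to 3′ from 250 bases before the start site to 50 after it, with letters that match a searched motif in capitals. The motifs, searched on both strands, were GAAANNGAA (interferon response element core), TTCNNNGAA (GAS, a STAT site), TGANTCA (AP-1) and the NF-kB site.
CD274, chr9:5450292-5450591, plus strand: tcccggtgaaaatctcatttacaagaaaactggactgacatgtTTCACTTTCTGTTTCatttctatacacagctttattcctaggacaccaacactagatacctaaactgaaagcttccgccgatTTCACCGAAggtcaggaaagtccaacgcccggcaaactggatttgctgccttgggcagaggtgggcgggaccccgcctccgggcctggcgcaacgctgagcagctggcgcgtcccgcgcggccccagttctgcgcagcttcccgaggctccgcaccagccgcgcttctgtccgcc
PVR, chr19:44643660-44643959, plus strand: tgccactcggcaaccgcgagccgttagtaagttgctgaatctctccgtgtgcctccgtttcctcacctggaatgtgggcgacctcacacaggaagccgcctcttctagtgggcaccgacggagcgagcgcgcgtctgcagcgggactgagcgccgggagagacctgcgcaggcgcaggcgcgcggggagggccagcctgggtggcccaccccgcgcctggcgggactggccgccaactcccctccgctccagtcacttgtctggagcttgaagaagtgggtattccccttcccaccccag
The CD274 window held GAAANNGAA at bases 44 to 52 and 50 to 58, which overlap, and TTCNNNGAA at bases 126 to 134, counted from 1 at the 5′ end. The PVR window held none of the 4 motifs. PDCD1LG2 had no window in the promoter set used, so its promoter was not searched. Among the windows not shown, that of LGALS9 held GAAANNGAA at bases 243 to 251, and 1 window each of TNFRSF14 and CD276 held the NF-kB site. LGALS9 had lower counts in A375RIPK4.KO, but it was under the filter on low counts. The difference did not pass in edgeR with no filter or in DESeq2. Of 35116 promoters of the same length, 8.11% held GAAANNGAA, 7.66% TTCNNNGAA, 7.71% TGANTCA and 11.3% the NF-kB site. A match is a description of these letters and no match says only that they are not in this window.

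Most genes known to control PD-L1 did not pass the test. Of 32 listed regulators 29 were tested, 2 rose, 2 fell and 25 did not pass, with a median log2 fold change of 0.06, and the share called, 13.8%, was close to the 16.6% of all genes. JUN, a subunit of AP-1, rose from 908 ± 21.7 to 1991 ± 58.7 normalized counts (log2 fold change 1.13, adjusted p = 4.79e-06, quasi-likelihood test of edgeR, Benjamini-Hochberg adjusted), and HIF1A, the hypoxia-inducible factor subunit, had 0.29 (adjusted p = 0.0275). IRF1, the transcription factor through which interferon gamma induces CD274, fell with −0.44 (adjusted p = 0.0118), and STAT2, a transducer of type I interferon, with −0.81 (adjusted p = 0.0113). The calls of HIF1A, IRF1 and STAT2 were each lost without at least 1 library (adjusted p up to 0.13, 0.0668 and 0.0526), and 1 to 4 regulators were higher and 1 to 2 lower across such fits.

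Genes beside CD274 and PDCD1LG2 on 9p24 moved in both directions or did not pass. Of 20 listed names, in which PLPP6 also stood under its older name PPAPDC2, 14 were tested. Of these 3 rose, 1 fell and 10 did not pass, with a median log2 fold change of 0.06. The share called was 28.6%, beside 16.6% of all genes tested. AK3, a mitochondrial adenylate kinase, had 0.88 (adjusted p = 6.09e-05) and GLDC, the glycine decarboxylase, 1.005 (adjusted p = 0.00955), while SLC1A1, a glutamate transporter, had −0.79 (adjusted p = 0.000236), by the quasi-likelihood test of edgeR, Benjamini-Hochberg adjusted. RANBP6 had 0.25 (adjusted p = 0.049), a call lost with no filter on low counts and without A375neg replicate 1 or 2 or A375RIPK4.KO replicate 1 or 3 (adjusted p up to 0.18).

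CD276 (B7-H3), a B7-family protein found on many tumours, lies on chromosome 15 from 73683944 to 73714514. It had raw counts of 3215, 3429 and 3670 in A375neg and 3068, 3566 and 3363 in A375RIPK4.KO, and the normalized values overlapped. The means were 3284 ± 171 and 3495 ± 199, a log2 fold change of 0.09 (SE 0.07, adjusted p = 0.419, quasi-likelihood test of edgeR, Benjamini-Hochberg adjusted). The 95% interval runs from 0.958- to 1.18-fold, which bounds any change at this depth.

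Of 13 other listed ligands of the B7 and butyrophilin families, 7 were tested, none rose and the median log2 fold change was −0.24. Only 1 fell, a share called of 14.3% beside 16.6% of all genes tested. The one that fell was VSIR (VISTA), an inhibitory B7-family protein, with 168, 190 and 176 raw counts in A375neg and 44, 62 and 64 in A375RIPK4.KO. Its log2 fold change was −1.52 (SE 0.18, adjusted p = 0.000525, quasi-likelihood test of edgeR, Benjamini-Hochberg adjusted), a 2.86-fold lower level, so VSIR and PDCD1LG2 moved in opposite directions. The remaining 6 did not pass.

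ICOSLG, the ligand of the T-cell costimulator ICOS, lies on the minus strand of chromosome 21 from 44216981 to 44240943. It had 11, 6 and 10 raw counts in A375neg and 4, 3 and 11 in A375RIPK4.KO, too few to be tested. Reads may be shared with a near-identical copy, LOC102723996, which had 1, 7 and 5 against 8, 5 and 10. The 2 genes together had 12, 13 and 15 against 12, 8 and 21, and the groups overlapped, so no difference was detectable at this depth.

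CD47, on the minus strand of chromosome 3 from 108043091 to 108091031, was nearly level between the groups. In raw counts it had 2218, 2308 and 2193 in A375neg and 1844, 2200 and 2139 in A375RIPK4.KO, and its normalized means were 2141 ± 70.7 and 2160 ± 141 (SD, n = 3 each). The log2 fold change was 0.01 (SE 0.07, adjusted p = 0.917, quasi-likelihood test of edgeR, Benjamini-Hochberg adjusted), with a 95% interval of 0.909- to 1.12-fold, and its sign turned without A375neg replicate 3 (−0.0069) or A375RIPK4.KO replicate 2 (−0.029).

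Among 7 genes that act on the same checkpoint of phagocytosis or beside it, all tested, 1 fell (14.3%) and none rose. Over all genes tested 16.6% were called, and the median log2 fold change of the 7 was −0.15. The gene that fell was QPCT, a glutaminyl cyclase, at 409, 425 and 341 raw counts in A375neg and 143, 164 and 145 in A375RIPK4.KO (log2 fold change −1.24, SE 0.14, adjusted p = 0.000304, quasi-likelihood test of edgeR, Benjamini-Hochberg adjusted). Its relative QPCTL, the cyclase that modifies CD47 so that it binds SIRPα, and SIRPA itself were among the 6 that did not pass.

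ENTPD1 (CD39), on the plus strand of chromosome 10 from 95694185 to 95877266, was scarce. The raw counts were 5, 6 and 13 in A375neg and 20, 17 and 16 in A375RIPK4.KO, so every A375RIPK4.KO library was above every A375neg library at these low counts. The normalized means were 7.62 ± 4.08 and 18.6 ± 2.92, a log2 fold change of 1.27 with a wide error (SE 0.46, 95% interval 0.23 to 2.31). The unadjusted p was 0.0218 and the adjusted p 0.0962 in the quasi-likelihood test of edgeR, Benjamini-Hochberg adjusted, and 12 alternatives gave adjusted p from 0.0575 to 0.265. An antisense gene, ENTPD1-AS1, overlaps it and had more counts, 69, 133 and 98 against 91, 126 and 108. Libraries were strand-specific, but whether the counting used strand is not given in the sources used here, so the part of either gene's reads in the other's count was not tested.

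Among the adenosine pathway genes other than ENTPD1, 3 rose. Of 16 listed enzymes, receptors and transporters 8 were tested, none fell and the median log2 fold change was 0.21. The 3 that rose were 37.5% of those tested, where 8.4% of all genes tested rose. NT5E (CD73), which makes adenosine from the AMP that CD39 releases, had 2900 ± 112 normalized counts in A375neg and 3666 ± 76.9 in A375RIPK4.KO (log2 fold change 0.34, adjusted p = 0.00381, quasi-likelihood test of edgeR, Benjamini-Hochberg adjusted). ADK, the kinase that removes adenosine inside the cell, had 0.34 (adjusted p = 0.00837), and SLC29A1, a nucleoside transporter, 0.38 (adjusted p = 0.00735). So the 3 that rose include an enzyme that forms adenosine, an enzyme that consumes it and a carrier. The same number, 3, rose with each library left out in turn.

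LGALS9 (galectin-9), a ligand of TIM-3 on T cells, lies on chromosome 17 from 27631188 to 27649560. It had 7, 8 and 15 raw counts in A375neg and 2, 3 and 5 in A375RIPK4.KO, under the filter on low counts. All 3 A375neg libraries were above the A375RIPK4.KO libraries, but with no filter the log2 fold change was −1.42 with an adjusted p of 0.228 in the quasi-likelihood test of edgeR, Benjamini-Hochberg adjusted, and DESeq2 gave −1.45 with 0.359. Of 9 other listed genes, which were galectins and the galectin-3-binding protein LGALS3BP, 4 were tested, LGALS3BP among them. None passed, where 16.6% of all genes tested were called, and the median log2 fold change was −0.21. Without A375RIPK4.KO replicate 2, all 4 fell, in the fit with the most calls over all genes (2952 of 14931 tested).

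TNFRSF14 (HVEM), which binds BTLA on lymphocytes, lies on chromosome 1 from 2554234 to 2563829. It had 1, 3 and 5 raw counts in A375neg and 12, 2 and 3 in A375RIPK4.KO, where 1 library stood apart and the groups overlapped. With no filter the log2 fold change was 1.05 and the adjusted p 0.557 in the quasi-likelihood test of edgeR, Benjamini-Hochberg adjusted. Of 6 listed partners 1 was tested and did not pass, with a log2 fold change of −0.05.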

How the data were processed

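Poly(A)-enriched, strand-specific libraries of 3 A375neg and 3 A375RIPK4.KO samples were analysed. Raw counts per gene were deposited by the authors as whole numbers. The submitters' processing notes name cutadapt, FastQC, HISAT2, HTSeq, DESeq2 and GRCh38.p13, with no versions. The normalized counts, a signal deposited by the authors in the same table, equal the raw counts over 1 size factor for each library (largest difference 0.0764) and were not used for tests. Columns with the authors' own fold changes, test statistics and p-values were not used.

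The comparison ran on raw counts with edgeR 4.0.16 in R 4.3.3, using TMM scaling, the filterByExpr filter and the quasi-likelihood test, with Benjamini-Hochberg adjusted p over 14443 genes and a threshold of 0.05. Standard errors are the log2 fold change divided by the square root of F. Samples were grouped by their labels. P-values measure the spread between these libraries. Levels per length used merged exons of GENCODE 29, positions and promoters RefSeq (GRCh38.p14), which held promoters for 8 of the 9 genes (not PDCD1LG2). Alternatives were DESeq2 1.42.0, its size factors, upper-quartile scaling, no filter, genes averaging 50 counts or more, a block for replicate number, and each library left out; a gene length correction and the longest transcript as length were added after seeing the data. Patterns used log2 CPM with a prior count of 2. The default edgeR fit and the DESeq2 fit were tested on simulated counts with known changes and the same dispersion for every gene. The other steps were not simulated. Figures used Python 3.11.15 and matplotlib 3.10.9.

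The members and the lists of related genes were chosen with earlier results of these data known, and the lists were written from general knowledge. Every member and RIPK4 were to be named, with the genes of each related list that had an adjusted p under 0.05, the others by counts only, and the 5 genes most like the member with the lowest p. Replicate numbers were checked for pairing by the correlation of deviations from group means. Proteins and reads were not analysed here.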

Additional observations from a re-analysis of the deposited data

How the results depend on the processing

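PVR and PDCD1LG2 kept their direction and their call under all 13 alternatives, RIPK4 likewise (log2 fold change −2.80 to −2.59). The count of members called was 2 to 3 with 1 library left out, and of those with at least 1.5-fold 1 to 2, the additional gene being CD274 without A375RIPK4.KO replicate 2. The log2 fold change of CD274 was 0.37 to 0.60 in those fits and 0.50 with the gene length correction (adjusted p = 0.0465), and that of CD47 was −0.029 to 0.062, with its sign turned at −0.0069 and −0.029. In related lists, against a main count of 1, the number of phagocytosis partners that fell was 2 under the replicate block and 2 with the length correction, and 1 to 2 with 1 library left out. In the galectin list, which includes LGALS3BP, genes lower were 1 with the length correction against 0 and 0 to 4 with 1 library left out (median −0.29 to −0.16). Other inhibitory ligands higher were 2 with DESeq2, 0 at a mean of at least 50 counts, where CD200 is not tested, 2 with the length correction and 0 to 1 with 1 library left out. With 1 library left out, nectins lower were 2 to 4, TNF-family ligands higher 0 to 1 and lower 0 to 1, PD-L1 regulators higher 1 to 4 and lower 1 to 2, and 9p24 neighbours higher 2 to 4. The cause of these changes was not tested. Same-numbered libraries had correlations of deviations of 0.0823, 0.0357 and −0.0119, and not every library correlated best with its own number. With 3 libraries per group these values neither show nor exclude pairing by number. The replicate block gave 2549 calls against 2403 over all genes and left the calls of the members as they were (PVR 0.49, adjusted p = 0.000873; PDCD1LG2 1.34, adjusted p = 0.0051; CD274 0.49, adjusted p = 0.0974). Calls over all genes ran from 1526 without A375neg replicate 2 to 2952 without A375RIPK4.KO replicate 2, all in edgeR. The level per length with exon positions from the deposited table was not run, since that table gives 1 exon per gene. ENTPD1 has no value at a mean of at least 50 counts. Depth limits LGALS9, TNFRSF14, ICOSLG and ENTPD1, whose counts stay at 20 or fewer per library.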

Other observations

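Other surface ligands that act on immune cells moved in both directions. Of 11 listed further inhibitory ligands and enzymes 5 were tested and 2 were called (40%, beside 16.6% of all genes tested). CEACAM1, an inhibitory adhesion molecule of T and NK cells, fell from 100, 141 and 126 raw counts in A375neg to 11, 4 and 1 in A375RIPK4.KO (log2 fold change −4.34, SE 0.51, adjusted p = 0.000441, quasi-likelihood test of edgeR, Benjamini-Hochberg adjusted). CD200, the ligand of an inhibitory receptor on myeloid cells, rose from 6, 5 and 2 to 19, 15 and 22 raw counts (log2 fold change 2.21, SE 0.49, adjusted p = 0.0149 in that test), a call lost without A375neg replicate 2 or 3 or A375RIPK4.KO replicate 3 (adjusted p = 0.0523 to 0.0667). At these low counts CD200 passed the filter through its A375RIPK4.KO libraries, where it was higher. CEACAM1 passed it through its A375neg libraries, where it was higher.

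Of 11 listed ligands of NK-cell receptors 5 were tested, 1 fell and none rose, with a median log2 fold change of −0.15. The share called was 20%, beside 16.6% of all genes tested. The one that fell was CD58, an adhesion ligand of CD2, from 410 ± 29.4 to 262 ± 10.2 normalized counts (SD, n = 3 each; log2 fold change −0.65, adjusted p = 0.003, quasi-likelihood test of edgeR, Benjamini-Hochberg adjusted). Of 10 listed TNF-family costimulatory ligands and receptors 5 were tested and 2 were called (40%, beside 16.6% of all genes tested). CD70, the ligand of CD27, had a log2 fold change of 0.27 (adjusted p = 0.0392) and FAS, the death receptor, −0.39 (adjusted p = 0.0183) in that test. CD70 lost its call when any 1 A375neg library or A375RIPK4.KO replicate 3 was left out (adjusted p up to 0.144), and FAS without A375neg replicate 2 or 3 or A375RIPK4.KO replicate 1 or 3 (up to 0.0935).

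Fibroblast markers summed to 11.2 to 13.02 CPM in A375neg and 10.2 to 11.5 in A375RIPK4.KO, with none of 5 tested called. Keratinocyte markers summed to 76.4 to 79.4 and 57.4 to 72.3, with 1 of 3 lower (KRT14), and endothelial markers to 13.02 to 17.5 and 18.3 to 20.3, with 1 higher (KDR) and 1 lower (PECAM1) of 3. The shares called were 33.3% and 66.7%, beside 16.6% of all genes tested. KDR lost its call without A375neg replicate 2 or 3 or A375RIPK4.KO replicate 3 (adjusted p = 0.0693 to 0.0908 in that test). PECAM1 passed the filter on low counts through its A375neg libraries, where it was higher, so its sign is not independent of that filter. The part of these differences in the ligand genes was not tested.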
